A study of Gossypium hirsutum with 18 samples.

Results

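The comparison described here is that of Xu142fl against Xu142 ovules of upland cotton (Gossypium hirsutum) at 1 day post-anthesis (DPA), the day after flower opening. Its members are all genes that the authors' deposited table for that day lists, which is 10793 of 61474 genes tested, or 17.6%. Over the 3 tables of the series, which also cover -1 and 0 DPA, 13031 gene entries are listed. Each genotype had 3 libraries at 1 DPA, made from total RNA of ovules and sequenced on an Illumina platform, with the treatment given as unhandled. The labels give no further allele or agent and do not say whether the libraries came from separate plants, so that p-values cover the spread among these libraries alone, which may be technical. The title of the series concerns the repressive histone mark H3K27me3 in fiber initiation.

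As background, a cotton fiber is a single cell that grows out of the ovule epidermis, and the first of these cells bulge from the surface around the day of flowering. Xu142 bears lint and fuzz fibers, and Xu142fl is a mutant of it known for seeds without either. A fiber cell that starts to grow loosens its wall, builds a cuticle and new membrane, and expands by turgor, with homeodomain and MYB factors known to act early in such epidermal outgrowths.

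Values below are the authors' normalised reads per gene, given for replicates 1, 2 and 3 in that order, and as mean ± SD (n = 3) where averaged. Log2 ratios are Xu142fl over Xu142 from the group means, ± SE. Higher, lower, rose and fell refer to Xu142fl against Xu142 and to genes in the authors' list. Its criteria were inferred from its extremes, an adjusted p of at most 0.0497 and a log2 fold change of at least 1 in size. They were taken as an adjusted p under 0.05 and that fold change. Where a group had no read the ratio is a bound, computed against 3 reads over that group. Ovules hold many cell types, and in such bulk samples fewer cells of a type and less RNA per cell cannot be told apart. Protein names are the closest described proteins and not tested functions.

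Of the 10793 listed genes, 3505 were higher and 7288 were lower in Xu142fl, which is 5.70% and 11.9% of the genes tested. Under the authors' factors the lower genes were also further apart between the genotypes, with a median log2 ratio of -1.72 against 1.55 for the higher genes. This order and the fold counts that follow depend on those factors. Factors from the listed genes, described below, moved the median log2 ratio upward by 1.21 or 1.25. A ratio of at least 10-fold was found for 1426 lower and 481 higher genes, and one of at least 100-fold for 308 lower and 73 higher genes. The 6 libraries did not overlap between the genotypes in 10529 genes, or 97.6%. The split was close on both subgenomes, with 1692 higher and 3517 lower genes on the A chromosomes and 1666 higher and 3683 lower on the D chromosomes. Contigs not placed on a chromosome differed in their split, with 147 higher and 88 lower genes.

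The normalised reads of the listed genes summed to between 6196515 and 8336702 per Xu142 library and to between 2826106 and 2914615 per Xu142fl library. They are sums over the list and not library depths. Factors taken from the listed genes in place of the authors' moved the median log2 ratio of the listed genes by 1.21 (TMM) or 1.25 (DESeq2). With them all 3505 higher genes kept their call, while 1906 (TMM) or 1851 (DESeq2) genes were called lower, 35.2% and 34.6% of calls against 67.5% in the list. Such factors centre the list on itself, and a lower gene then keeps its call only where its fall exceeds the shift by a further 2-fold. A higher gene instead has the shift added to its ratio, so that its kept call is no check of it. With the authors' factors edgeR's refit called 3106 genes higher. Counts for gene groups are therefore given under the TMM factors too, where the higher counts stay as they are through the shift. Counts under the authors' factors are read beside the 67.5% lower, and the 97.6% without overlap, over all listed genes. Those under TMM factors are read beside the 35.2% of calls that were lower over all listed genes with these factors. The count of higher genes rested on single libraries more than that of lower genes, with 2115 higher genes in edgeR's quasi-likelihood refit without Xu142fl replicate 2 and 2125 without Xu142fl replicate 3.

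**Figure D1:**
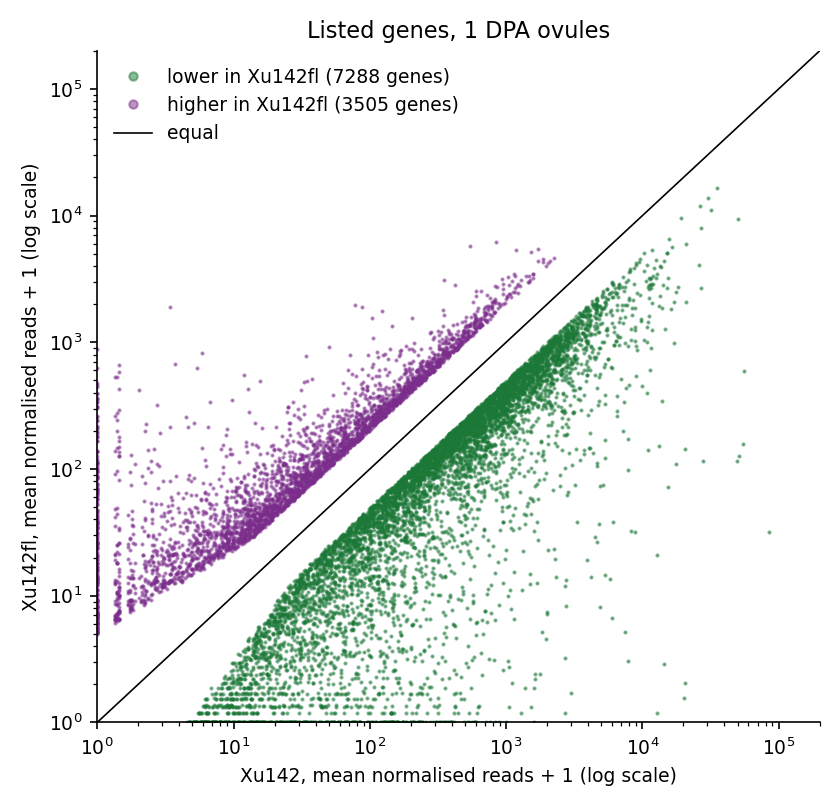
Mean normalised reads of each listed gene in Xu142 (x axis) and Xu142fl (y axis), both plus 1 and on log scales, at 1 DPA, with green points for the 7288 genes lower in Xu142fl and purple points for the 3505 higher genes. Under the authors' factors, the green cloud reaches further from the line of equality and up to higher levels than the purple one.

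The ovule label was checked with AGL11 and BEL1, MADS-box and homeodomain factors of ovule identity in Arabidopsis. AGL11 (Gh_D05G274800) stood at 2201, 2412 and 2550.1 in Xu142 and 1309, 987 and 961 in Xu142fl, present in all libraries and lower in every Xu142fl library, though its log2 ratio of -1.14 ± 0.16 turned to 0.061 under TMM and 0.094 under DESeq2 factors. A BEL1 homolog (Gh_A08G133500) stood at 31.0, 25.9 and 23.4 in Xu142 and 48.2, 55.3 and 64.1 in Xu142fl, a log2 ratio of 1.06 ± 0.17 whose call was lost in edgeR's refit without Xu142 replicate 2 or 3 or without Xu142fl replicate 2 or 3. Of 40 listed green tissue names 14 were higher and 26 lower, and 14 higher and 3 lower under TMM factors. In edgeR's refit the higher count was 3, 3, 3, 2 and 2 without Xu142 replicates 1, 2 and 3 and Xu142fl replicates 2 and 3, and the lower count 14, 15, 13, 11 and 8 without Xu142 replicates 1 and 3 and Xu142fl replicates 1, 2 and 3. Nuclear-encoded photosystem subunits among them were 4 higher and 26 lower. Seed storage and late embryo names had 4 higher and 5 lower members and 4 higher and 3 lower under TMM factors, with a higher count of 1 and 1 without Xu142fl replicates 2 and 3, and pollen and anther names 1 higher and 3 lower and 1 higher and 2 lower. The summed pollen and anther level ran from 755 to 974 in Xu142 and 205 to 233 in Xu142fl, and that of the seed and embryo names from 559 to 1068 in Xu142 and 340.2 to 427 in Xu142fl. The pollen gene LAT52 (Gh_A04G048300) stood at 154, 134 and 154 in Xu142 and 31.1, 27.7 and 39.1 in Xu142fl, and was not called under TMM factors. The part of these tissues in the differences was not tested.

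Among the most abundant listed transcripts of Xu142 were those of fiber and epidermal surface proteins, and all of these listed transcripts were lower. The 3 listed genes of protein E6, a protein known from young cotton fibers, were all lower. E6 (Gh_A05G145000) stood at 36276, 73224 and 54261 in Xu142 and 206, 119.9 and 145 in Xu142fl. Its other copies Gh_D05G160200 and Gh_D10G028800 had log2 ratios of -6.56 ± 0.32 and -3.18 ± 0.29. The Xu142fl libraries were thus low but not at 0 for E6, and no library of one genotype reached the range of the other. Per kb of gene length, the level of Gh_A05G145000 was 49715 normalised reads in Xu142 and 143 in Xu142fl.

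Protodermal factor 1 (Gh_D04G040400), a wall protein of the outermost cell layer, stood at 46339, 55586 and 47666 in Xu142 and 10992, 9438 and 7670.2 in Xu142fl. It was lower in every Xu142fl library but stayed among the highest transcripts there, with 7434 normalised reads per kb. Of the 3 snakin-1 genes, which encode small antimicrobial peptides and were all lower, the most abundant had log2 ratios of -2.93 ± 0.26 (Gh_A04G144000) and -3.02 ± 0.32 (Gh_D04G182700), and metallothionein-like protein 2 (Gh_A01G249700), which binds metal ions, one of -3.38 ± 0.26. All 67 listed genes with at least 10000 normalised reads per kb in Xu142 were lower. A cut on the Xu142 level among called genes favours lower genes, and abundant genes without a call are not listed. The count is therefore a description of the list and not a separate result. The gene with the highest mean in Xu142 of all listed genes, Gh_A02G045600, has no protein name and was chosen after its values were seen. It stood at 70431, 97540.5 and 86742 in Xu142 and 35.1, 26.6 and 30.6 in Xu142fl.

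Of the listed genes, 6 reached 10000 normalised reads per kb in Xu142fl, and 2 of these were higher there. A histone H4 gene (Gh_A03G052700), a core protein of chromatin, was 1 of the abundant named genes that rose. It stood at 2176, 1443 and 1996 in Xu142 and 5366, 4422 and 3745 in Xu142fl, with every Xu142fl library above every Xu142 library. The other was a mitochondrial ribosomal protein S12 (Gh_Contig00768G000400), described with the organelle genes below. The remaining named genes most abundant in Xu142fl were lower than in Xu142 all the same, among them the tubulin alpha-4 chains Gh_D02G226100 (from 30422 ± 7320.3 to 13757 ± 1849) and Gh_A03G209100 (from 26304 ± 5982 to 11984 ± 1559), both of which lost the call in edgeR's refit without Xu142 replicate 2 and turned to log2 ratios of 0.074 and 0.083 under TMM factors.

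Homeodomain factors of class IV (HD-Zip IV), which set the fate of epidermal cells and trichomes in plants, split by name. Of 18 listed genes 10 were higher and 8 lower, and the genotypes did not overlap in any of the 18, beside the 97.6% over all listed genes. HDG11, known in Arabidopsis for its effect on trichome branching, had no read in any Xu142fl library. The copy Gh_D12G292500 (chromosome D12, 62292775 to 62298304, on the authors' build, which is not given in the sources used here) stood at 719.7, 739 and 663 in Xu142, at least 818-fold higher there. The copy Gh_A12G298900 stood at 586, 652 and 569.7, at least 697-fold higher. Both HDG11 copies were steady across the Xu142 libraries.

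The other lower HD-Zip IV genes kept reads in Xu142fl. PROTODERMAL FACTOR 2 (Gh_A06G172400), a factor of epidermal identity, stood at 1879.9, 1078 and 1265 in Xu142 and 338, 383 and 297 in Xu142fl, and its call ended under TMM factors, at -0.89 in log2. The 4 HDG1 genes had log2 ratios from -4.35 (Gh_A09G050500) to -1.63 (Gh_A08G117400), the last of which was not called under TMM factors. ANTHOCYANINLESS 2, which acts in epidermal pigment and root cells, went both ways, with log2 ratios of -2.72 ± 0.23 for Gh_D09G047600 and 1.12 ± 0.12 for Gh_D11G093100. All 5 HDG2 genes, of a factor that promotes stomata and trichomes in Arabidopsis, and all 4 HDG5 genes were higher. Their rises were small and alike, between 1.14 and 1.36 in log2 for HDG2 and between 1.20 and 1.28 for HDG5. HDG2 (Gh_A13G106400) stood at 1320.5, 1131 and 1229 in Xu142 and 2685, 3152 and 2857 in Xu142fl, so that each Xu142fl library lay above each Xu142 library. Its adjusted p in the authors' deposited table was 5.01e-20. Under TMM factors the list had 10 higher and 5 lower.

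MYB factors, a large family with many epidermal regulators, had 41 higher and 48 lower members, a median log2 ratio of -1.33 beside -1.31 over all listed genes. The higher count was 22 and 25 without Xu142fl replicates 2 and 3 in edgeR's refit, and the TMM split was 41 higher and 22 lower. MYB39 (Gh_A04G171200), whose Arabidopsis counterpart activates suberin genes, stood at 1505, 729.9 and 887 in Xu142 and had 1 read over the Xu142fl libraries, a ratio of 4017 (95% exact counting interval, 720.4 to 158726), though the genes of that name were 5.0 higher and 5.0 lower. Myb-related protein 306 (Gh_D13G184900) fell from 1487 ± 332 to 11.3 ± 2.21, a log2 ratio of -7.04 ± 0.25, among 1.0 higher and 8.0 lower genes of that name. MYB86 (Gh_D03G165800) fell from 3088 ± 584 to 422 ± 41.3, a log2 ratio of -2.87 ± 0.18, where the other genes of that name were higher. All 9 listed genes named MYB108, a factor tied to stress and stamen maturation in Arabidopsis, were higher, a name singled out after its values were seen. Among them Gh_D11G116300 had a log2 ratio of 1.42 ± 0.29.

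Of the MYB, bHLH and WD40 proteins that together set trichome fate in Arabidopsis, GLABRA 3 (Gh_D08G203800), the bHLH member, was higher and was also chosen after its values were seen. It stood at 475, 513 and 517 in Xu142 and 1004, 1108 and 1006 in Xu142fl, tight within each genotype and without overlap. Its log2 ratio was 1.05 ± 0.06, with an adjusted p of 3.68e-14 in the authors' deposited table. TRANSPARENT TESTA GLABRA 1 (Gh_D08G116300), the WD40 member, stood at 474, 547 and 454 in Xu142 and 278, 218 and 196 in Xu142fl, a log2 ratio of -1.09 ± 0.17 whose call was lost without Xu142fl replicate 3 and which turned to 0.11 under TMM factors. The bHLH list as a whole had 21 higher and 18 lower members and 21 higher and 8 lower under TMM factors. All 3 bHLH67 genes were higher, with 1.17 for Gh_D11G109300, and all 5 bHLH62 genes lower, with -3.54 for Gh_A02G019900 and -3.46 for Gh_D02G022300 in log2.

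**Figure D2:**
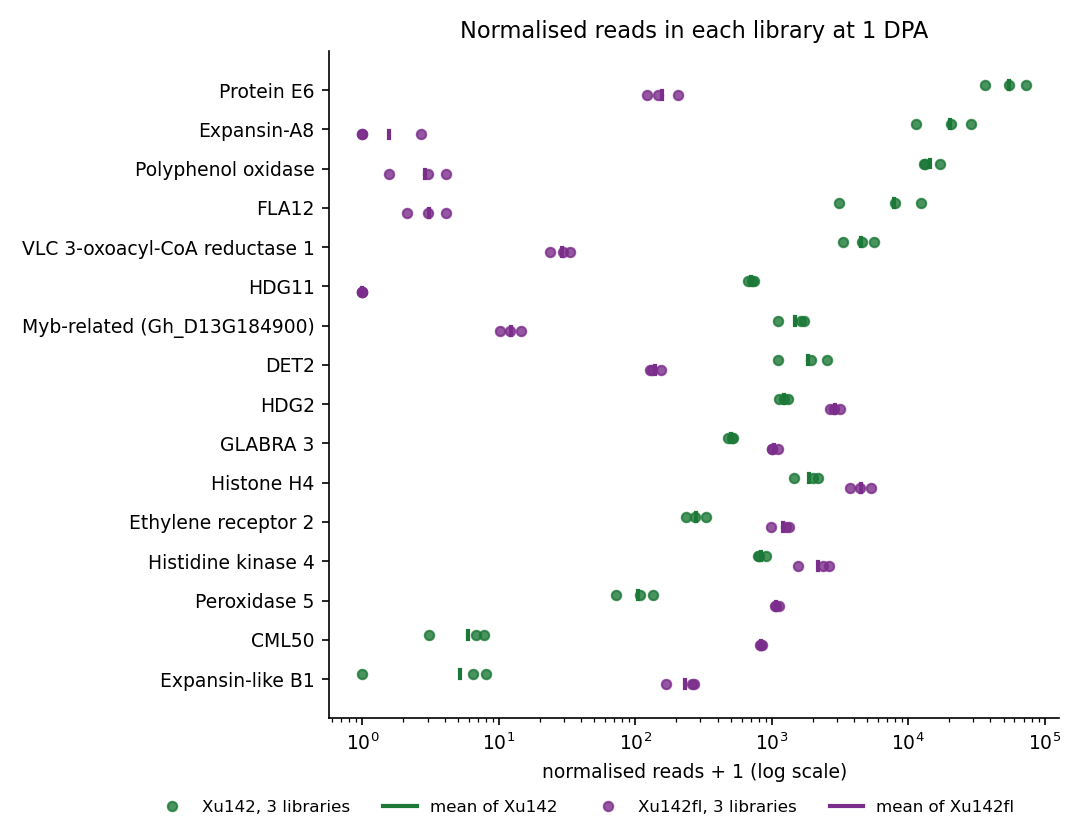
Normalised reads plus 1 (x axis, log scale) of named genes in each of the 3 Xu142 libraries (green points) and 3 Xu142fl libraries (purple points), with a vertical dash at each group's mean. From E6 to DET2 every Xu142fl point lies left of the Xu142 points, and from HDG2 to expansin-like B1 every Xu142fl point lies right of them.

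Genes that remove H3K27 methylation were represented by REF6, a demethylase of that mark, and all 3 listed REF6 genes were higher. The copy Gh_D07G059400 stood at 439, 416 and 455 in Xu142 and 812, 1108 and 1059 in Xu142fl, with no overlap between genotypes. Its adjusted p in the authors' deposited table was 3.36e-12, at a log2 ratio of 1.18 ± 0.14. The copies Gh_A07G058900 and Gh_D09G261000 had log2 ratios of 1.08 ± 0.15 and 1.05 ± 0.16, and both calls were lost in edgeR's refit without Xu142fl replicate 2. The list of H3K27 methylation writers had 0 listed members, which does not show that they did not differ. Histones had 5 higher and 3 lower members, the higher count being 3 without Xu142fl replicate 1 in edgeR's refit, and 5 higher and 0 lower under TMM factors. Histone H2B.3 appeared on both sides, with 2.08 ± 0.29 for Gh_A13G255900 and -1.18 ± 0.13 for Gh_D01G240200 in log2, the latter turning to 0.029 under TMM factors.

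Cell cycle and replication genes had 17 higher and 11 lower members. Subunit 1B of the origin recognition complex, which marks where replication starts, rose in both listed copies, from 620.5 ± 88.4 to 1347 ± 201 for Gh_A08G018300 and from 647 ± 13.4 to 1478 ± 390.1 for Gh_D08G017400. Cyclin-dependent kinase inhibitor 7 (Gh_D13G040600), a brake on the cell cycle whose name had 1.0 higher and 2.0 lower genes, stood at 586, 461 and 386 in Xu142 and 12.0, 25.6 and 14.2 in Xu142fl. Its Xu142fl libraries were all far below the Xu142 libraries. The lower count of the list was 7 without Xu142 replicate 2, and under TMM factors it was 17 higher and 1 lower.

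Kinesins, motor proteins on microtubules, had 27 higher and 12 lower members, while tubulins and microtubule-associated proteins had 3 higher and 33 lower. Under TMM factors the splits were 27 higher and 5 lower for kinesins and 3 higher and 17 lower for tubulins, whose higher count was 1, 1, 1, 1 and 1 without Xu142 replicates 2 and 3 and Xu142fl replicates 1, 2 and 3 in edgeR's refit. The higher kinesins with the highest levels were KIN-12F, KIN-12E, KIN-14R and KIN-4C, for example KIN-4C (Gh_D05G220600) with a log2 ratio of 1.06 ± 0.03, beside 1 lower gene of that name. All 4 KIN-4A genes were lower. KIN-4A (Gh_A02G186300), of a kind that guides cellulose deposition in fibers of rice and Arabidopsis, stood at 2563, 3921 and 2879.9 in Xu142 and 626, 835 and 765 in Xu142fl, and its call ended under TMM factors, at -0.86 in log2. The tubulin alpha-4 chain Gh_D05G216200 stood at 12954, 28179 and 21931 in Xu142 and 2204, 2081 and 1925 in Xu142fl, with a log2 ratio of -3.34 ± 0.31. Actin filament genes followed the tubulins, with 17 higher and 77 lower members and 17 higher and 29 lower under TMM factors, and a higher count of 11, 10 and 10 without Xu142 replicate 3 and Xu142fl replicates 2 and 3 in edgeR's refit. An actin gene (Gh_A01G249900) stood at 2174, 3263 and 2660 in Xu142 with 1 read over the Xu142fl libraries, a ratio of 9894 (95% exact counting interval, 1775 to 390841). Formin-like protein 1 (Gh_A02G007600), which nucleates actin filaments, rose from 1202 ± 99.0 to 2767 ± 604.

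Lists of genes that act on the cell wall differed in their split. Expansins, which loosen the wall, had 7 higher and 9 lower members and 7 higher and 4 lower under TMM factors, with higher counts of 4 and 4 without Xu142 replicate 3 and Xu142fl replicate 3 and lower counts of 5 and 5 without Xu142fl replicates 2 and 3 in edgeR's refit. The expansin-A8 gene Gh_D10G123800 had 3 reads in Xu142fl, all in replicate 3, against 11319, 28784 and 20415 normalised reads in Xu142, while the other two expansin-A8 genes were higher. The 3 expansin-like B1 genes were all higher. Gh_D08G185100 stood at 0, 5.46 and 11.7 in Xu142 and 263, 423 and 324 in Xu142fl, and Gh_A08G188200 at 0, 5.46 and 7.02 in Xu142 and 166, 268 and 259 in Xu142fl. Expansin-A1 (Gh_A12G200600) rose from 283 ± 45.8 to 845 ± 129.

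Xyloglucan enzymes, which cut and rejoin the chains that tether cellulose, had 4 higher and 36 lower members and a median log2 ratio of -2.09. Under TMM factors the split was 4 higher and 15 lower, and the higher count was 2, 1, 2 and 1 without Xu142 replicate 3 and Xu142fl replicates 1, 2 and 3 in edgeR's refit. A xyloglucan endotransglucosylase/hydrolase (Gh_D11G054000) stood at 2295, 7716 and 7300.4 in Xu142 and 9.03, 16.4 and 11.9 in Xu142fl. Another (Gh_D11G064800) had a log2 ratio of -5.19 ± 0.40, and xyloglucan endotransglucosylase/hydrolase 2 (Gh_D02G024500) one of -3.13 ± 0.37. The higher gene of highest level, Gh_A13G059500, had a log2 ratio of 1.21 ± 0.27.

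Pectin enzymes had 7 higher and 35 lower members, with 7 higher and 8 lower under TMM factors and a higher count of 4 without Xu142fl replicate 3 in edgeR's refit. Polygalacturonase 1 beta-like protein 3 (Gh_Contig00680G000200), which acts on pectin in fruit walls, fell from 3096 ± 648 to 276 ± 15.7. Arabinogalactan and fasciclin proteins of the cell surface had 3 higher and 19 lower members and 3 higher and 4 lower under TMM factors. Fasciclin-like arabinogalactan protein 12 was near absent from Xu142fl in both listed copies. Gh_A09G124800 stood at 3125, 12349 and 8001 in Xu142 and 2.01, 3.07 and 1.13 in Xu142fl and Gh_D09G117000 at 3594, 11318 and 7429 in Xu142 and 5.02, 3.07 and 4.54 in Xu142fl. Within Xu142 the first replicate was the lowest for Gh_A09G124800, and still far above all Xu142fl libraries.

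The list of cellulose and COBRA genes went the other way, with 12 higher and 7 lower members, 12 higher and 2 lower under TMM factors, and higher counts of 7 and 7 without Xu142fl replicates 2 and 3 in edgeR's refit. The cellulose synthase-like D5 pair, of a class that builds the wall of tip-growing cells, had log2 ratios of 1.09 ± 0.11 (Gh_A12G146100) and 1.15 ± 0.14 (Gh_D12G145600). COBRA-like protein 8 (Gh_A11G237800), a glycan-binding surface protein, rose from 506 ± 67.6 to 1582 ± 82.5, while COBRA-like protein 7 (Gh_A02G060200) fell from 628 ± 216 to 232 ± 12.1 and was not called under TMM factors. Genes named COBRA-like protein 7 were 1.0 higher and 2.0 lower.

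Apart from the 3 E6 genes, the lowest list medians were those of surface lipid genes. Very-long-chain fatty acid elongation, which makes precursors of waxes and sphingolipids, had 1 higher and 41 lower members and a median log2 ratio of -3.47, and no gene of the 42 overlapped between genotypes, beside the 97.6% without overlap over all listed genes. Under TMM factors the list had 1 higher and 30 lower and a median of -2.33. Elongation runs through a condensing enzyme, a reductase, a dehydratase and a further reductase. The condensing enzyme 3-ketoacyl-CoA synthase 10 (Gh_A13G214200) stood at 7485, 10212 and 8633 in Xu142 and 1062, 1014 and 986 in Xu142fl. The first reductase, 3-oxoacyl-CoA reductase 1 (Gh_A03G153800), stood at 3321, 5566 and 4617 in Xu142 and 32.1, 28.7 and 22.7 in Xu142fl. The last step, enoyl-CoA reductase (Gh_A10G226500), had a log2 ratio of -2.61 ± 0.16, and 3-ketoacyl-CoA synthase 6 (Gh_D01G206100) one of -4.10 ± 0.37. All Xu142fl libraries were below all Xu142 libraries in each of these.

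Wax and cutin genes had 7 higher and 19 lower members, a median log2 ratio of -3.07 and 7 higher and 15 lower under TMM factors, and higher counts of 4, 4 and 4 without Xu142 replicate 2 and Xu142fl replicates 2 and 3 in edgeR's refit. ECERIFERUM 1, which makes wax alkanes, moved in both directions by copy. Gh_A05G335100 stood at 4489.8, 6180.2 and 5326 in Xu142 and 189, 164 and 155 in Xu142fl, and Gh_A06G185800 at 133, 141 and 140.4 in Xu142 and 363, 329 and 341 in Xu142fl. Both ECERIFERUM 26-like genes, which help elongate the longest chains, fell, with log2 ratios of -4.43 ± 0.27 (Gh_A08G189600) and -4.49 ± 0.15 (Gh_D08G186400). Fatty acyl-CoA reductase 3 (Gh_D07G115700), which makes wax alcohols, fell from 2713 ± 752 to 102 ± 12.1. ABC transporter G family member 11, which exports wax and cutin in Arabidopsis, had 1.0 higher and 4.0 lower genes, among them Gh_A03G108200 with a log2 ratio of -2.71 ± 0.25 and Gh_D02G134700 with -3.47 ± 0.28. Cytochrome P450 86A2, a fatty acid hydroxylase of cutin synthesis, was lower in all 3 listed genes, with log2 ratios of -5.66 ± 0.36 (Gh_A08G153000) and -5.12 ± 0.34 (Gh_D08G152600). Genes named cytochrome P450 86A1, a name singled out after its values were seen, went the other way. They were 5 higher and 0 lower, with a median log2 ratio of 4.75.

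GDSL esterases, a family that includes the enzyme joining cutin, had 9 higher and 38 lower members and 9 higher and 27 lower under TMM factors, with higher counts of 5, 4, 3 and 5 without Xu142 replicates 2 and 3 and Xu142fl replicates 2 and 3 in edgeR's refit. A member named APG (Gh_D05G132100) stood at 11998, 24524 and 16585 in Xu142 and 108, 118 and 97.6 in Xu142fl. Lipid-transfer proteins, which carry lipids across the wall, had 4 higher and 16 lower members and 4 higher and 11 lower under TMM factors. Lipid-transfer protein 3 (Gh_A09G236500), the most abundant in Xu142fl, fell from 32043 ± 1178 to 11162 ± 3519 and was not called under TMM factors.

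**Figure D3:**
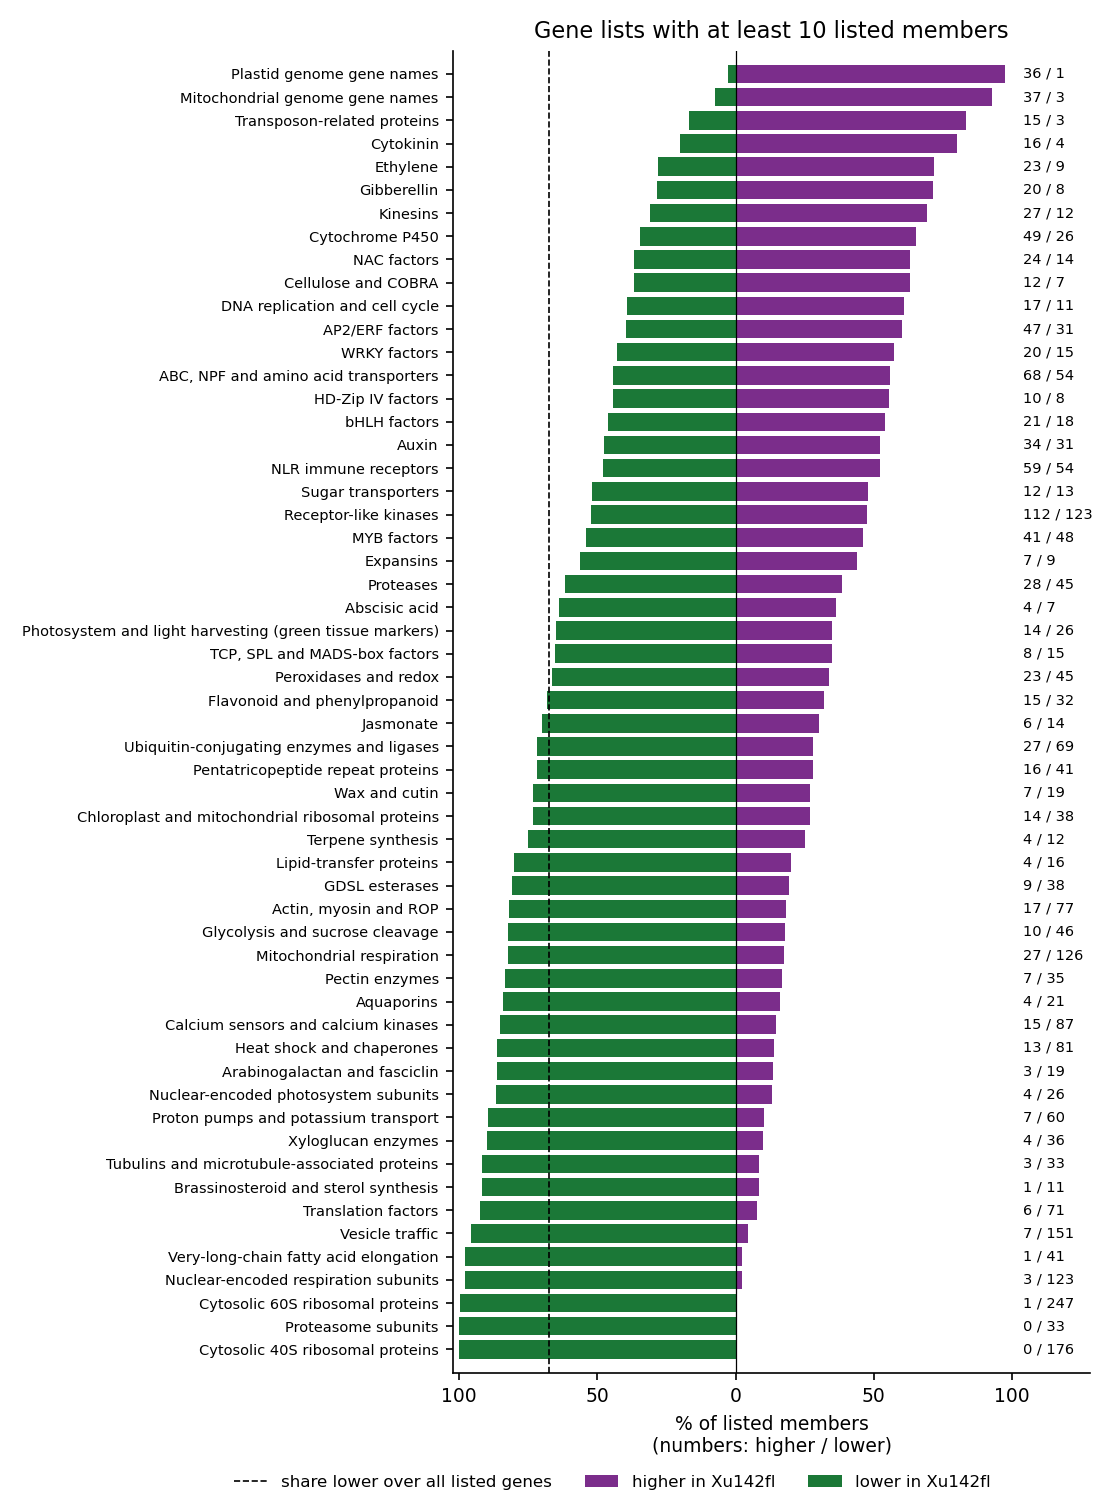
Share of listed members higher (right, purple) and lower (left, green) in Xu142fl at 1 DPA for each gene list with at least 10 listed members, in % of those members, with the counts higher and lower at the right and a dashed line at the 67.5% lower over all listed genes. Under the authors' factors very-long-chain fatty acid elongation (1 higher, 41 lower) lies near the bottom, and cytokinin (16 higher, 4 lower) and ethylene (23 higher, 9 lower) near the top.

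Among hormones, the ethylene list had 23 higher and 9 lower members, 23 higher and 6 lower under TMM factors and a median log2 ratio of 1.69. All 4 genes of ethylene receptor 2 were higher. Gh_D02G049000 stood at 236, 327 and 275 in Xu142 and 978, 1278 and 1339 in Xu142fl, and Gh_A02G043700 had a log2 ratio of 1.51 ± 0.17. All 9 genes named EIN3-BINDING F-BOX PROTEIN 2, which degrades the ethylene transcription factors, and all 7 named ERF1A were higher, both names singled out after their values were seen. The EIN3-binding F-box gene Gh_D06G111500 stood at 161, 191 and 140.4 in Xu142 and 539, 1027 and 993 in Xu142fl. Genes named homolog 1 of 1-aminocyclopropane-1-carboxylate oxidase, the last enzyme of ethylene synthesis, had 1.0 higher and 4.0 lower members. They are counted in the list, but their name gives a likeness to that enzyme and does not show that they act in its step. Among them Gh_A09G250900 stood at 735, 334 and 598 in Xu142 with 3 reads in Xu142fl, summed over its libraries, a ratio of 715 (95% exact counting interval, 244 to 3470.3). A gene named as the enzyme itself, 1-aminocyclopropane-1-carboxylate oxidase (Gh_A06G179300), stood at 75.5, 561 and 418 in Xu142 and 1419, 1978 and 1569 in Xu142fl, beside 1 lower gene of that name. Its call was lost without Xu142 replicate 3 and without each Xu142fl library. Genes named 1-aminocyclopropane-1-carboxylate oxidase 3 were 1 higher and 2 lower, and those named 1-aminocyclopropane-1-carboxylate synthase also 1 higher and 2 lower. The lower members named here carry names of synthesis enzymes or their homologs, whereas all receptor 2 and EIN3-binding F-box genes were higher.

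Cytokinin genes had 16 higher and 4 lower members and 16 higher and 1 lower under TMM factors, with higher counts of 10, 9, 9 and 9 without Xu142 replicates 2 and 3 and Xu142fl replicates 2 and 3 in edgeR's refit. Histidine kinase 4, a cytokinin receptor, was higher in all 3 listed genes, with 911, 805 and 786 in Xu142 and 1552, 2625 and 2377 in Xu142fl for Gh_A13G028200. The copy Gh_D13G030000 had a log2 ratio of 1.37 ± 0.22. The response regulator ARR9 (Gh_A10G189000), induced early by cytokinin in Arabidopsis, had a log2 ratio of -1.97 ± 0.33 and was not called under TMM factors. Gibberellin genes had 20 higher and 8 lower members and 20 higher and 5 lower under TMM factors, with higher counts of 12, 13 and 12 without Xu142fl replicates 1, 2 and 3 in edgeR's refit. Gibberellin 3-beta-dioxygenase 1 (Gh_D06G223900), which makes active gibberellin, stood at 163, 315 and 309 in Xu142 and 635, 762 and 698 in Xu142fl. Gibberellin-regulated protein 4 (Gh_D04G053600), a small peptide, stood at 2453, 3083 and 2716 in Xu142 and 204, 149 and 197 in Xu142fl, while gibberellin-regulated protein 11 (Gh_A09G190300) rose from 585 ± 130.2 to 1313 ± 171.

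Auxin genes had 34 higher and 31 lower members and 34 higher and 8 lower under TMM factors. Auxin response factor 5 (Gh_A01G116800), a transcription factor of organ patterning, rose from 521 ± 62.4 to 1243 ± 244, and auxin-induced protein 22D (Gh_D07G231600) fell from 456 ± 155 to 48.1 ± 26.8, among 1.0 higher and 4.0 lower genes of that name. Auxin-induced in root cultures protein 12 (Gh_D07G175300) had 335, 473 and 381 in Xu142 and no read in Xu142fl, at least 458-fold higher in Xu142. Brassinosteroid and sterol synthesis had 1 higher and 11 lower members and 1 higher and 3 lower under TMM factors. The steroid reductase DET2 (Gh_D04G146600), an early enzyme of brassinosteroid synthesis, stood at 1101, 2527 and 1928 in Xu142 and 154, 127 and 132 in Xu142fl. Jasmonate genes had 6 higher and 14 lower members and 6 higher and 1 lower under TMM factors, the lower count being 9, 9, 9 and 9 without Xu142 replicates 2 and 3 and Xu142fl replicates 2 and 3 in edgeR's refit. Allene oxide cyclase (Gh_A12G191800), an early enzyme of jasmonate synthesis, fell from 966 ± 264 to 268 ± 45.5 and was not called under TMM factors. Abscisic acid genes had 4 higher and 7 lower members and 4 higher and 3 lower under TMM factors, with a lower count of 4 without Xu142 replicate 3.

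Among stress-related transcription factors, Xu142 replicate 1 was the lowest Xu142 library by summed normalised reads, but this was not particular to them. It was also the lowest for expansins (24225, 60534 and 43763) and aquaporins (24097, 61472 and 49169). The same held for the sum over all listed genes (6196515, 8336702 and 7472515). NAC factors had 24 higher and 14 lower members, with summed normalised reads of 2336, 6401 and 8112 in Xu142 and 8644, 9513 and 9908 in Xu142fl, so that Xu142 replicate 1 was the lowest library and Xu142 replicates 2 and 3 lay nearer to Xu142fl. NAC47 (Gh_A11G269400) showed this, with 37.2, 312 and 262 in Xu142 and 1452, 1579 and 1594 in Xu142fl. Lower NAC counts were 5, 8, 7 and 5 without Xu142 replicate 3 and Xu142fl replicates 1, 2 and 3. AP2/ERF factors had 47 higher and 31 lower members, with higher counts of 31 and 28 without Xu142fl replicates 2 and 3 and lower counts of 20, 17, 18, 15 and 15 without Xu142 replicates 2 and 3 and Xu142fl replicates 1, 2 and 3. SHINE-type ERF Gh_A06G110900, of a family that activates wax and cutin genes, fell from 453 ± 58.6 to 85.0 ± 11.4, beside 1 higher gene of the same name. WRKY factors had 20 higher and 15 lower members, with higher counts of 13, 10, 9, 11 and 8 without Xu142 replicates 2 and 3 and Xu142fl replicates 1, 2 and 3 and lower counts of 7, 6, 7, 6 and 6 without Xu142 replicates 2 and 3 and Xu142fl replicates 1, 2 and 3, all in edgeR's refit. Under TMM factors the splits were 24 higher and 2 lower for NAC, 47 higher and 6 lower for AP2/ERF and 20 higher and 3 lower for WRKY. The part of Xu142 replicate 1 in these differences was not tested.

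Cytosolic ribosomal proteins, translation factors and proteasome subunits were almost all lower under the authors' factors, and most of these calls ended under TMM factors. Cytosolic 60S ribosomal proteins had 1 higher and 247 lower members with a median log2 ratio of -1.41, and 40S ribosomal proteins 0 higher and 176 lower with -1.40. Under TMM factors the counts were 1 higher and 12 lower and 0 higher and 8 lower, with medians of -0.22 and -0.20. Ribosomal proteins of chloroplasts and mitochondria had 14 higher and 38 lower members and 14 higher and 1 lower under TMM factors. Their higher count in edgeR's refit was 6, 3 and 3 without Xu142 replicates 1, 2 and 3. It was 14, 3 and 3 without Xu142fl replicates 1, 2 and 3. Translation factors went from 6 higher and 71 lower to 6 higher and 1 lower, with a higher count of 2 and 2 without Xu142fl replicates 2 and 3 in edgeR's refit, proteasome subunits from 0 higher and 33 lower to 0 higher and 0 lower, and vesicle traffic genes from 7 higher and 151 lower to 7 higher and 23 lower. The ribosomal protein L21-1 gene Gh_D01G218800 stood at 5119.5, 5786 and 5851 in Xu142 and 2553, 2083 and 1931 in Xu142fl, and was not called under TMM factors. Surface lipid lists kept more of their lower calls, as given above for fatty acid elongation, wax and cutin, lipid-transfer proteins and GDSL esterases.

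**Figure D4:**
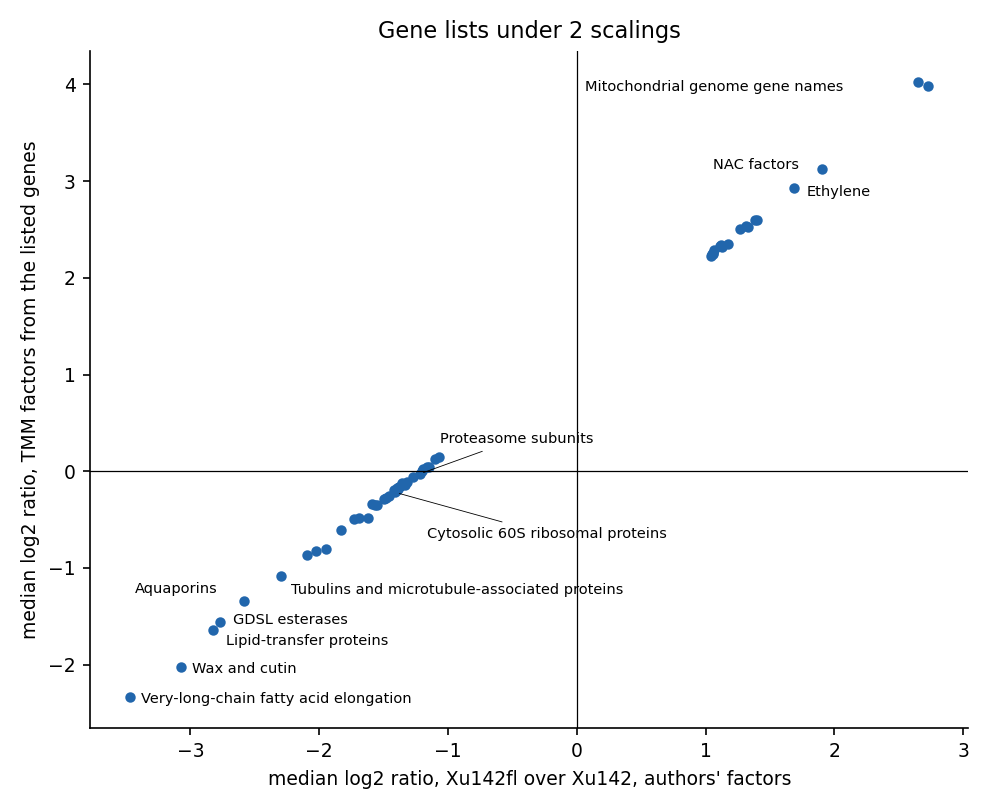
Median log2 ratio (Xu142fl over Xu142) of each gene list with at least 10 listed members under the authors' factors (x axis) and under TMM factors from the listed genes (y axis). All lists shift upward by a similar amount, cytosolic 60S ribosomal proteins from -1.41 to -0.22 and very-long-chain fatty acid elongation from -3.47 to -2.33.

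Respiration genes differed by the genome that their names belong to. The organelle lists were made after the values had been seen. Nuclear-encoded subunits of respiration had 3 higher and 123 lower members, and their summed normalised reads were 138659, 175645 and 165722 in Xu142 and 59263, 52908 and 51491 in Xu142fl, low in all 3 Xu142fl libraries. Under TMM factors they had 3 higher and 9 lower. Cytochrome c oxidase subunit 6a (Gh_A02G178500), part of the last respiratory complex, stood at 7057, 8790 and 8191 in Xu142 and 507, 439.7 and 425 in Xu142fl. Genes with names of the mitochondrial genome had 37 higher and 3 lower members and 37 higher and 0 lower under TMM factors. The genotypes did not overlap in 20 of these 40 genes, against 97.6% over all listed genes.

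The rise of these mitochondrial names came from Xu142fl replicates 2 and 3. Their summed normalised reads were 2603, 2475 and 2625 in Xu142 and 2447, 16617 and 19105 in Xu142fl, so that Xu142fl replicate 1 sat at the level of Xu142. Ribosomal protein S12 (Gh_Contig00768G000400) stood at 695, 386 and 542 in Xu142 and 856, 8178 and 8258 in Xu142fl, and chain 3 of NADH-ubiquinone oxidoreductase (Gh_Contig00768G000500) at 117, 84.6 and 106 in Xu142 and 141, 2333 and 2230 in Xu142fl, neither of which was called by limma. In edgeR's refit the higher calls of the list were 37 without Xu142fl replicate 1 and 23, 15, 9, 9 and 8 without Xu142 replicates 1, 2 and 3 and Xu142fl replicates 2 and 3. Plastid genome names had 36 higher and 1 lower members, 36 higher and 0 lower under TMM factors and sums of 332, 387 and 324 in Xu142 and 248, 1206 and 2039 in Xu142fl, with 7 of 37 not overlapping. Their higher calls were 35 without Xu142fl replicate 1 and 5, 3, 0, 0 and 0 without Xu142 replicates 1, 2 and 3 and Xu142fl replicates 2 and 3. What set Xu142fl replicate 1 apart for organelle transcripts was not tested.

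**Figure D5:**
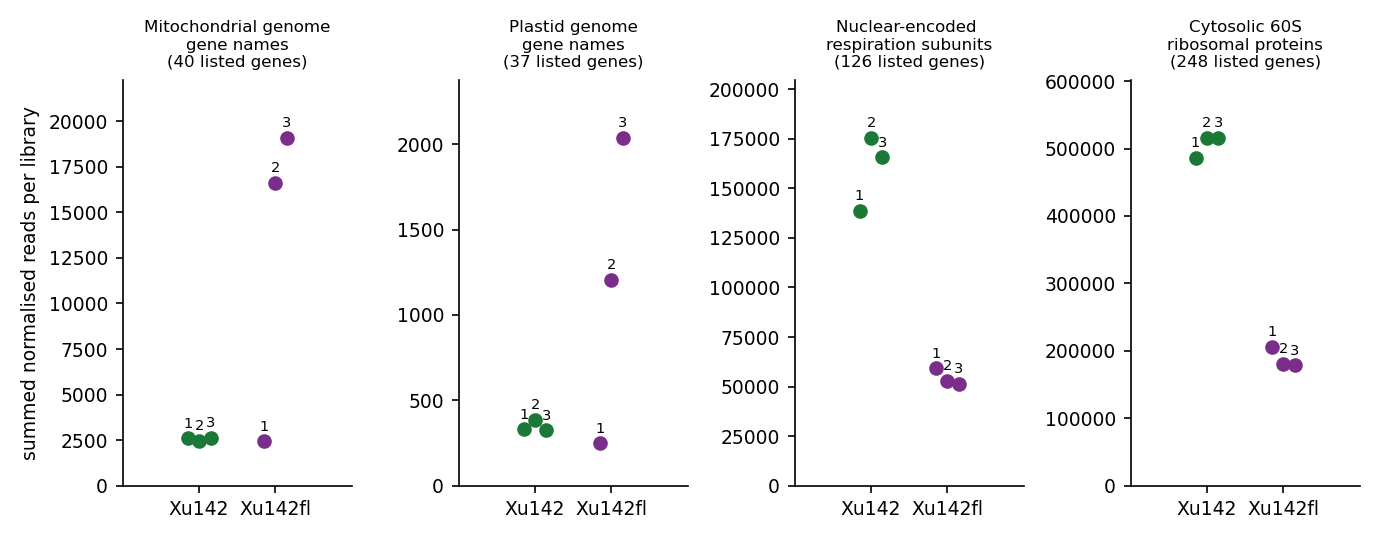
Summed normalised reads per library (y axes from 0) of 4 gene lists in Xu142 (green) and Xu142fl (purple) at 1 DPA, with the replicate number beside each point. Organelle genome names are high in Xu142fl replicates 2 and 3 and at the Xu142 level in replicate 1, whereas nuclear-encoded respiration subunits and 60S ribosomal proteins are low in all 3 Xu142fl libraries.

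Among carbon and energy genes, glycolysis and sucrose cleavage had 10 higher and 46 lower members, 10 higher and 12 lower under TMM factors, and higher counts of 6, 6, 6, 4 and 4 without Xu142 replicates 2 and 3 and Xu142fl replicates 1, 2 and 3 in edgeR's refit. Glyceraldehyde-3-phosphate dehydrogenase 2 (Gh_A05G343300) stood at 19775, 22908 and 19961 in Xu142 and 6534, 5985 and 5439.6 in Xu142fl, and enolase (Gh_A01G235700), a later step of glycolysis, had a log2 ratio of -1.88 ± 0.17. Neither was called under TMM factors. Sugar transporters had 12 higher and 13 lower members and 12 higher and 2 lower under TMM factors. SWEET15 (Gh_A04G120500), a sucrose exporter of seed coats in Arabidopsis, fell from 1165 ± 567 to 177 ± 57.7, while the sucrose importer SUC2 (Gh_A02G072000) rose from 161 ± 14.0 to 462 ± 64.8.

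Water and ion transport genes, which bear on turgor, were lower in most members under the authors' factors. Aquaporins had 4 higher and 21 lower members and 4 higher and 10 lower under TMM factors. The plasma membrane aquaporin PIP2-7 gene Gh_D01G002000 stood at 3753, 12039.8 and 9384 in Xu142 and 1896, 1536 and 1465 in Xu142fl, a call that ended under TMM factors, and genes of that name were 2.0 higher and 2.0 lower. The vacuolar TIP1-1 gene Gh_Contig01136G000100 had a log2 ratio of -2.59 ± 0.37. Proton pumps and potassium transport had 7 higher and 60 lower members and 7 higher and 10 lower under TMM factors, with higher counts of 4, 4 and 4 without Xu142 replicate 3 and Xu142fl replicates 2 and 3. Subunit E of the vacuolar proton ATPase (Gh_D08G132400), which acidifies the vacuole, fell from 2728 ± 772 to 552 ± 16.7. ABC, NPF and amino acid transporters had 68 higher and 54 lower members and 68 higher and 16 lower under TMM factors, with higher counts of 45, 38 and 33 without Xu142 replicate 3 and Xu142fl replicates 2 and 3 in edgeR's refit.

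Secondary metabolism held some of the largest differences. Polyphenol oxidase (Gh_A06G204600), which oxidises phenols, stood at 13234, 17003 and 13112 in Xu142 and 2.01, 3.07 and 0.567 in Xu142fl. Lupeol synthase (Gh_D06G220700), which makes a triterpene of plant surfaces, stood at 2816, 3389 and 2814 in Xu142 with 3 reads in Xu142fl, summed over its libraries, a ratio of 3709.7 (95% exact counting interval, 1269 to 17993). Both were thus present at high levels in one genotype alone among these libraries. Flavonoid and phenylpropanoid genes had 15 higher and 32 lower members, 15 higher and 19 lower under TMM factors, and higher counts of 5, 6 and 7 without Xu142 replicate 3 and Xu142fl replicates 2 and 3. Flavonoid 3-O-glucosyltransferase (Gh_A05G414600), which adds a sugar to anthocyanins and flavonols, stood at 7658, 8888 and 7114 in Xu142 and 96.3, 107 and 89.1 in Xu142fl. Cytochrome P450 enzymes had 49 higher and 26 lower members and 49 higher and 13 lower under TMM factors, with higher counts of 31, 32 and 28 without Xu142 replicate 3 and Xu142fl replicates 2 and 3. Terpene synthesis had 4 higher and 12 lower members and 4 higher and 4 lower under TMM factors, with a higher count of 2 and 2 without Xu142 replicate 3 and Xu142fl replicate 1, and squalene synthase (Gh_D02G244200), the first step to sterols, fell from 1357 ± 213 to 168 ± 12.4.

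Calcium and receptor genes differed in balance. Calcium sensors and kinases had 15 higher and 87 lower members and 15 higher and 16 lower under TMM factors. Annexin D1 (Gh_A05G211500), a calcium-dependent membrane-binding protein, stood at 12334, 15150.3 and 14821 in Xu142 and 3594, 2499.8 and 2453 in Xu142fl. Receptor-like kinases had 112 higher and 123 lower members and 112 higher and 43 lower under TMM factors, their median log2 ratio turning from -1.10 to 0.13. The NLR immune receptor list had 59 higher and 54 lower members and 59 higher and 25 lower under TMM factors, with higher counts of 31, 26 and 32 without Xu142 replicate 3 and Xu142fl replicates 2 and 3. RPM1-interacting protein 4, a target of pathogen effectors guarded by such receptors, is not a receptor itself but was matched by the same search. Its 7 listed genes, all lower, are therefore included in these counts. It fell in Gh_A06G179800 from 1628 ± 365 to 1.19 ± 1.60 and in Gh_D06G182000 from 1964 ± 559.8 to 3.59 ± 2.98.

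Further stress and turnover lists differed in how far their split depended on the factors. Heat shock proteins and chaperones had 13 higher and 81 lower members and 13 higher and 16 lower under TMM factors, with higher counts of 8 and 7 without Xu142fl replicates 2 and 3. The chaperone dnaJ 11 rose in Gh_A03G233100 from 87.6 ± 72.7 to 488 ± 21.7. Peroxidases and redox enzymes had 23 higher and 45 lower members, 23 higher and 7 lower under TMM factors, and higher counts of 15, 15, 14 and 12 without Xu142 replicates 2 and 3 and Xu142fl replicates 2 and 3. Cytosolic ascorbate peroxidase (Gh_A05G087200), which removes hydrogen peroxide, fell from 11176 ± 1952 to 1620.4 ± 264, and peroxidase 5 (Gh_D12G264800) stood at 108, 70.9 and 133 in Xu142 and 1126, 1045 and 1072 in Xu142fl. Proteases had 28 higher and 45 lower members and 28 higher and 17 lower under TMM factors, with higher counts of 14, 14, 13 and 11 without Xu142 replicate 3 and Xu142fl replicates 1, 2 and 3. The cysteine protease RD21B (Gh_A06G153500) stood at 18976, 35987 and 27915 in Xu142 and 145, 121 and 80.0 in Xu142fl, among 1.0 higher and 6.0 lower genes of that name. Ubiquitin enzymes had 27 higher and 69 lower members and 27 higher and 16 lower under TMM factors, with higher counts of 15, 17, 10 and 11 without Xu142 replicates 2 and 3 and Xu142fl replicates 2 and 3. Pentatricopeptide repeat proteins, which process organelle RNA, had 16 higher and 41 lower members and 16 higher and 7 lower under TMM factors, the lower count being 27 without Xu142fl replicate 2. With 66.2%, 61.6%, 71.9% and 71.9% lower, the redox, protease, ubiquitin and pentatricopeptide lists were near the 67.5% over all listed genes. Each had more higher than lower calls under TMM factors, as did all listed genes together, with 3505 higher and 1906 lower calls.

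Some transcripts were near absent from one genotype. With at least 40 normalised reads in one group and at most 3% of that in the other, 519 genes were near absent from Xu142fl and 149 near absent from Xu142. Of the 149, 106 were transcripts without annotation by their identifier and 25 had a protein name, and of the 519 the numbers were 117 and 280. Among named genes nearly confined to Xu142fl, Gh_D03G042600, named after an uncharacterised mitochondrial protein, had no read in Xu142 and stood at 259.9, 227 and 224 in Xu142fl, at least 199-fold higher. The ubiquitin ligase XBAT32 (Gh_A08G097700) stood at 4.14, 6.82 and 2.34 in Xu142 and 664, 620.1 and 605 in Xu142fl. CDC45 (Gh_A11G148200), part of the replication helicase, had 1 read over the Xu142 libraries and stood at 135, 129 and 149 in Xu142fl, among 2.0 higher and 1.0 lower genes of that name. These genes were low in every Xu142 library and high in every Xu142fl library. Transposon-related names, a list made after the values had been seen, had 15 higher and 3 lower members and 15 higher and 1 lower under TMM factors.

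Most of the differences at 1 DPA were listed on that day alone, 9474 of 10793 genes or 87.8%. The tables share no library and were each normalised on their own, so no test was made between days. At -1 DPA 872 genes were listed, 1.50% of those tested, and 700 of them were also listed at 1 DPA, which is 80.3% of that table and 6.49% of the 1 DPA table. At 0 DPA 1366 genes were listed, 2.38% of those tested, and 1145 were shared, which is 83.8% and 10.6%. Of the shared genes 672 and 1117 had the same direction as at 1 DPA. Among listed genes the deposited log2 fold change was closer to 0 than the ratio of means on the other days. The median ratio of the first to the second was 0.679 at -1 DPA and 0.655 at 0 DPA against 0.967 at 1 DPA. The largest adjusted p that the authors listed was 4.93e-05 at -1 DPA, 0.0131 at 0 DPA and 0.0497 at 1 DPA. The part of these differences in the length of the lists was not tested. Of the 149 transcripts near absent from Xu142, 139 were also listed at -1 DPA and 114 at 0 DPA, and of the 519 near absent from Xu142fl, 49 and 277 were.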

How the data were processed

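RNA from 18 ovule libraries, 3 for each of 2 genotypes on 3 days, was sequenced per the labels, and the 6 libraries of 1 DPA were compared here. The library columns deposited by the authors hold a signal, normalised reads per gene. All listed values in a library were whole multiples of 1 value (100% whole within a tolerance of 0.001), so they are reads divided by 1 factor per library, and reads were recovered from them. Recovered reads over listed genes ran from 2833696 to 6388114 per library, and depth beyond those genes is unknown. Per the file headers the tables also give the authors' log2 fold change, raw and adjusted p-value, and gene position and length. The deposited log2 fold change is Xu142 over Xu142fl and closer to 0 than the ratio of means, so ratios of group means were used and turned to Xu142fl over Xu142. Neither the software for alignment, counting and testing nor strandedness, annotation or genome build is given in the sources used here, so that overlapping genes and near-identical homeologs could share reads. Counting intervals and floors cover counting error only. How many genes the authors tested was worked out from their raw and adjusted p-values.

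The main call was the authors' listing, the case planned for tables of called genes. Alternatives refitted the recovered reads with edgeR 4.0.16 (quasi-likelihood), DESeq2 1.42.0 and limma 3.58.1 on log2(value + 1) or log2(value + 0.1) (R 4.3.3), adjusted after Benjamini and Hochberg over the 61474 genes tested, and a fold criterion of 2 on the group means. Further ones used TMM or DESeq2 factors from the listed genes, a replicate block, a mean of at least 10, an adjusted p under 0.01, and left out each library in turn. The refits were tested on simulated data. Deviations of same-numbered libraries from their group means correlated at 0.06, 0.03 and -0.02, and those of other pairs at between -0.115 and 0.125. No pairing by replicate number was seen, but these values come from listed genes alone and cannot exclude one.

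The members, gene lists and alternatives were chosen with earlier results of these data known. The 65 lists are patterns on protein names, which 70.1% of listed genes carry. The organelle and transposon lists were added after values were seen. Named genes were the 10 of highest level per kb in each genotype, the 10 of largest ratio in each direction with a mean of at least 100, the 4 members of highest level per kb in each list and direction, and all HD-Zip IV, H3K27 and E6 genes. A further 5 genes and the protein names said to be singled out were chosen after their values were seen. No sequence was used here. Figures were drawn with matplotlib 3.10.9 in Python 3.11.15.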

Additional observations from a re-analysis of the deposited data

Results flagged for a closer look

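Among the genes named in the report, 4 were listed on another day in the opposite direction, with no overlap between genotypes on either day. The wall enzyme Gh_D02G024500 (xyloglucan endotransglucosylase/hydrolase 2) had a log2 ratio of 3.01 at -1 DPA and of -3.13 at 1 DPA. Gibberellin 3-beta-dioxygenase 1 (Gh_D06G223900) had -1.61 at -1 DPA and 1.41 at 1 DPA. Gibberellin-regulated protein 11 (Gh_A09G190300) and the chaperone dnaJ 11 (Gh_A03G233100) had -1.40 and -1.68 at 0 DPA against 1.17 and 2.48 at 1 DPA. The difference between days was not tested for any of the 4, since each table was normalised on its own.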

How the results depend on the processing

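The 3505 higher and 7288 lower genes became 3106 and 7024 with edgeR, 2937 and 6871 with DESeq2, 3012 and 6872 or 2669 and 6652 with limma at a pseudocount of 1 or 0.1, 3109 and 6731 with a mean of at least 10, and 2896 and 6845 at an adjusted p under 0.01. Without 1 library the higher count ran from 2115 (without Xu142fl replicate 2; 2125 without Xu142fl replicate 3) to 2950, and the lower count from 6044 to 7072. The lower count was 1906 under TMM and 1851 under DESeq2 factors from the listed genes. Lists with more lower than higher members numbered 42 of 65, 22 under TMM and 22 under DESeq2 factors, and 40 to 47 otherwise. With the replicate block, for whose numbers no pairing was seen, 3209 genes were higher and 7040 lower. No listed gene was called in the opposite direction under any of these settings. Of 117 genes named, 94 were called under every alternative. Under TMM and DESeq2 factors 100 and 101 were called, and 5 lower genes turned to ratios just above 0 without a call: AGL11 Gh_D05G274800 (0.061 and 0.094), the tubulins Gh_D02G226100 (0.074 and 0.11) and Gh_A03G209100 (0.083 and 0.12), TTG1 Gh_D08G116300 (0.11 and 0.14) and histone H2B.3 Gh_D01G240200 (0.029 and 0.067). These turns follow from the shift of all ratios. Leaving out 1 library changed the call of at most 4 named genes at a time, and 7 named genes lost the call in at least 1 such refit. Because only called genes are listed, no share of a gene group could be set against its unlisted members.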
